A study of Drosophila melanogaster with 40 samples.

Results

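Pool 2 of a polysome gradient was compared with pool 1, the pool of free mRNA, in extracts of wild-type *Drosophila* embryos. The 3 gradients are labelled biological replicates. The comparison rested on the 6 arrays of the series that were labelled wild type and fraction 1 or 2, that is, both pools of 3 gradients, out of 40 arrays in all. For each of 6524 transcripts the log2 level in pool 2 minus the log2 level in pool 1 was taken within each gradient, after every array had been centred on its median.

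The wild-type embryos were laid by w1118 mothers, were collected 0 to 2 h after egg laying and were untreated apart from the cycloheximide that the lysis buffer of the polysome gradients contained. Other gradients of the same series are used below only beside these values. They are 3 gradients of embryos from mothers homozygous for smaug1, collected over the same hours, and 2 gradients each with puromycin or with cycloheximide. The drug gradients are labelled smaug1 too and are listed with the same 0 to 2 h, and their lysate was divided before treatment. It was made in another lysis buffer and was kept on ice and then warmed with the drug. Drug and untreated gradients thus differ in more than the drug. The mutation is maternal, so what the smaug-mutant embryos lack is the Smaug supplied by the mother, an RNA-binding repressor of translation and stability. No stage or tissue marker among the transcripts could be looked up by name, and the *smaug* gene itself is not analysed here.

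A polysome gradient sorts mRNAs by the number of ribosomes they carry, since heavier particles sink further in sucrose. Free mRNA and ribosomal subunits stay near the top, and mRNAs with several ribosomes are found in the lower pools. Pool 1 was the top 4 mL, pool 2 the next 2 mL, and pools 3 and 4 the lower 3 mL each, pool 4 with the pellet. By the methods of the study, pool 2 lies between free and polysomal mRNA and holds both kinds, and for that reason the translation index, the log2 ratio of pools 3 and 4 to pool 1, leaves it out. In an embryo of this age almost all mRNA is maternal, zygotic transcription has barely begun, and control of translation and of mRNA decay sets which proteins are made. Puromycin ends the growing peptide chain and frees the ribosome, whereas cycloheximide halts ribosomes on the mRNA.

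The levels are log2 values that the authors scaled with an *Arabidopsis* RNA added to every pool in the same amount, so a level is an amount per pool. The median level in pool 2 was 11.3, 10.9 and 12.2 in gradients 1, 2 and 3, and in pool 1 it was 12.1, 12.7 and 12.7. Pool 2 arrays had the narrower spread over transcripts, with SDs of 1.06, 1.25 and 1.28, against 1.67, 1.74 and 1.65 in pool 1. The scaling to the spike-in was linear, with a slope for each array, and a slope changes the spread. Its part in these SDs was not tested. Gradient 1 was labelled with Cy3, and gradients 2 and 3 with Cy5, so within wild type gradient 1 and the dye cannot be told apart. The smaug-mutant gradients had the opposite dyes, Cy5 for gradient 1 and Cy3 for gradients 2 and 3. Puromycin and cycloheximide also had opposite dyes within a replicate, with Cy3 for puromycin in replicate 1 and Cy5 in replicate 2.

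In pool 1, gradient 1 stood apart from the other wild-type gradients and lay close to 1 smaug-mutant gradient. Over all transcripts its pool 1 levels had a correlation of 0.92 with those of smaug-mutant gradient 1, against 0.51 and 0.57 with wild-type gradients 2 and 3. In pools 2, 3 and 4 its correlation with smaug-mutant gradient 1 was 0.91, 0.89 and 0.89, against 0.86, 0.87 and 0.95 with wild-type gradient 3 and 0.69, 0.69 and 0.83 with wild-type gradient 2. In those pools it thus lay about as close to wild-type gradient 3, and closer in pool 4, and gradient 2 was the one farther away. For the difference between pools 2 and 1 the correlation was 0.85 with smaug-mutant gradient 1, against 0.27 with wild-type gradient 2 and 0.48 with wild-type gradient 3. With smaug-mutant gradients 2 and 3, which had the same dye as wild-type gradient 1, it was 0.43 and 0.54. The part of the dye was not tested. Wild-type gradients 2 and 3 had a correlation of 0.51 with each other. These values run across transcripts, which are not independent observations, and each pair shares the same probes. Whether the arrays of these gradients numbered 1 were hybridised together is not given in the sources used here, and an exchange of labels between them was not tested. The wild-type calls and every comparison with the smaug-mutant gradients carry that doubt. Results are therefore given by gradient, and the count of calls with and without gradient 1.

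The first question was how much mRNA each pool held. In all 3 gradients the typical transcript was at a lower level in pool 2 than in pool 1. Before centring, the median difference over transcripts was -0.65 in gradient 1, -1.81 in gradient 2 and -0.43 in gradient 3, or 0.638, 0.285 and 0.741 times the pool 1 level. The mean was -0.96 ± 0.74 (SD, n = 3), and the exact two-sided sign-flip permutation test gave p = 0.25, the smallest that 3 gradients allow. Pool 2 also had the smaller volume. Set per mL, the median difference was 0.35, -0.81 and 0.57, so the gradients no longer shared a direction, and the mean of 0.035 ± 0.74 (SD, n = 3) had p = 1 in the same exact permutation test. Level per pool and level per mL thus give different answers, and only the first is the quantity the spike-in measures. The lysate was of whole embryos, so the parts of the embryo cannot be told apart.

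Of the signal of a transcript over all 4 pools, a median of 16.5% lay in pool 2 in gradient 1, 10.4% in gradient 2 and 20.3% in gradient 3. For 285, 169 and 918 transcripts pool 2 was the highest of the 4 pools, or 4.37%, 2.59% and 14.1% of all. Pool 2 was the lowest of the 4 pools by its array median in each gradient, and gradient 2 had the deepest dip there.

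**Figure D1:**
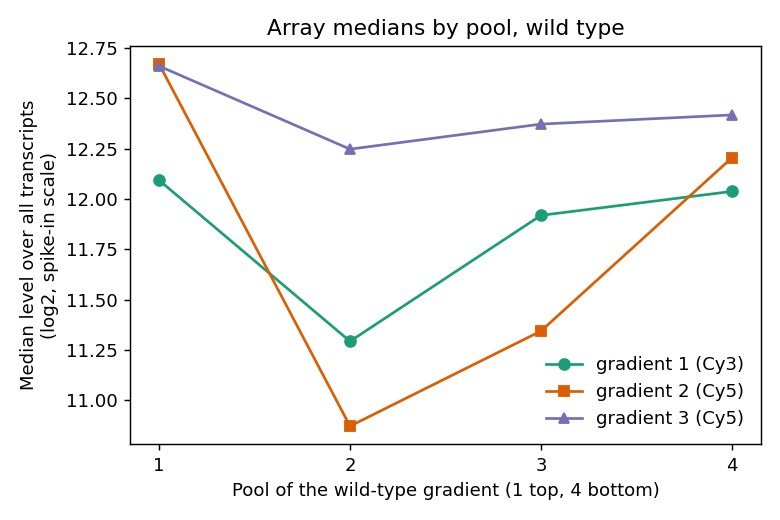
Median log2 level over 6524 transcripts (y axis, spike-in scale, not starting at 0) in pools 1 to 4 of the 3 wild-type gradients (x axis), 1 point per array and 1 line per gradient. Each line is lowest in pool 2, at 11.3, 10.9 and 12.2 in gradients 1, 2 and 3.

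By the correlation of log2 levels over transcripts, pool 2 lay closer to the lighter polysomal pool than to the free pool. Within a gradient the levels in pool 2 had a correlation with those in pool 3 of 0.75, 0.67 and 0.76 in gradients 1, 2 and 3, and with those in pool 1 of 0.57, 0.61 and 0.64. With pool 4 it was 0.67, 0.44 and 0.71. In each gradient the value with pool 3 was the highest. The correlations are over transcripts of 1 gradient and carry no test.

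The second question was which transcripts were placed differently in pool 2 and pool 1 relative to the bulk. After centring, 167 of 6524 transcripts (2.56%) passed an adjusted p of 0.05 in limma with Benjamini-Hochberg adjustment over all transcripts, and most of them were higher in pool 2. The calls were 154 transcripts higher in pool 2 (2.36%) and 13 lower (0.199%). Before adjustment 1020 were higher and 442 lower with p under 0.05. Called rises ran from 2.15 to 4.81 with a median of 2.98 on the log2 scale, and called falls from -2.50 to -6.68 with a median of -3.43. All 167 had the same sign in the 3 gradients, which the test favours, and 3093 of all transcripts (47.4%) did so, 1636 upward and 1457 downward. The median SD of a transcript over gradients was 0.77 and the median limma SE was 0.48, and no difference smaller than 2.15 in either direction was called.

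The count rested on gradients 2 and 3. Without gradient 1 there were 450 calls, 400 higher and 50 lower, and they held all 167. Without gradient 2 or without gradient 3 no transcript passed, although 970 and 637 lay higher, and 328 and 128 lower, with p under 0.05 before adjustment. The centring also mattered. On the spike-in scale without centring 80 transcripts were called, 15 higher and 65 lower in pool 2, so "higher" here is relative to the median transcript of each pool.

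**Figure D2:**
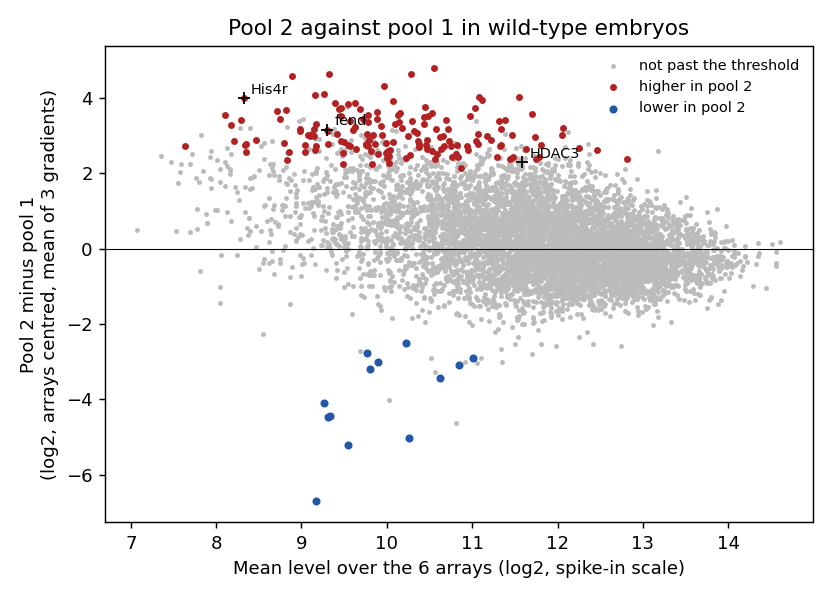
Mean difference of pool 2 minus pool 1 over 3 wild-type gradients (y axis, log2, arrays centred) against the mean level over the 6 arrays (x axis, log2, spike-in scale), 1 point per transcript. The 154 transcripts called higher (red) lie between 2.15 and 4.81 and mostly at low mean levels, the 13 called lower (blue) lie at -2.50 or below, and crosses mark *His4r*, *fend* and *HDAC3*, of which *HDAC3* was not called.

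The calls also describe where a transcript was scarce. Ranks in pools 1 and 2 follow in part from the choice of transcripts by the difference between these pools, and are given as a description. Of the 154 called higher, 151 (98.1%) were among the lowest 25% of transcripts in pool 1, and none was above the median there. In pool 2, 54 of the 154 (35.1%) were above the median transcript and 49 (31.8%) among the lowest 25%. In pool 4, which the comparison did not use, 84 of them (54.5%) were above the median, and in pool 3, 70 (45.5%). In pools 3 and 4 they thus lay around the middle of all transcripts. Of the 13 called lower, all 13 were among the lowest 25% in pool 2, while 6 were above the median in pool 1 and none was above it in pool 3 or pool 4. For 12 of these 13, against 32 of the 154, at least 1 of the 6 levels was below the lowest 1% of its array.

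The difference had a correlation of -0.40 with the mean level of the transcript, and of 0.057 after arrays had been rescaled to the same SD. The same arrays enter both the difference and the mean, so the negative sign follows from the wider spread in pool 1. Equal SDs bring such a correlation near 0, so neither value tests whether the difference depends on level. Low levels, and the wider spread of the pool 1 arrays, moved with the calls, and their part in the result was not tested. With rescaled arrays 191 transcripts were called, 145 higher and 46 lower, and 124 of the main calls were among them. When the lowest 25% of transcripts by mean level was left out, 4 transcripts were called, all higher and all among the main calls.

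One transcript rose more than all others. FBtr0070956, which the gene table used here does not name, was at 11.7, 12.1 and 13.6 in pool 2 of gradients 1, 2 and 3, against 8.13, 7.82 and 10.00 in pool 1. The pools did not overlap. Relative to the array medians it was higher in pool 2 by 4.35, 6.10 and 3.99, with a mean of 4.81 ± 0.54 (limma SE, n = 3) and an adjusted p of 0.0187. In the polysomal pools it stayed at that height, with 12.6, 12.5 and 14.3 in pool 3 and 12.5, 12.5 and 13.6 in pool 4. The smaug-mutant gradients, which did not enter the call, gave differences of 4.53, 2.70 and 3.34.

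FBtr0079545, also without a name, had the next largest rise that the naming rule admits, a mean of 4.04 ± 0.50 (limma SE, n = 3, adjusted p = 0.0226). Its levels were 12.2, 12.4 and 14.6 in pool 2, against 8.62, 11.2 and 10.2 in pool 1. The smallest of its 3 differences, 3.01 in gradient 2, went with the highest of its pool 1 levels. It too kept its height further down, at 13.1, 12.6 and 14.4 in pool 3 and 13.4, 14.4 and 13.6 in pool 4.

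In the other direction only FBtr0073562 met the rule. It was at 9.43, 8.56 and 9.16 in pool 2, against 12.4, 14.2 and 12.3 in pool 1, with differences of -2.18, -3.82 and -2.73 after centring. The mean was -2.91 ± 0.49 (limma SE, n = 3, adjusted p = 0.0295), a ratio of 0.133 relative to the array medians. Before centring the mean difference was -3.91. Pools 3 and 4 were as low as pool 2, at 9.62, 8.30 and 8.82 in pool 3 and 9.31, 8.88 and 8.97 in pool 4. In the smaug-mutant gradients the difference was -1.77, -2.28 and -1.35. These 3 transcripts lost their calls without gradient 2 or without gradient 3, with adjusted p from 0.0910 to 0.243, and FBtr0073562 also in the fit that ignored which pools came from 1 gradient (adjusted p = 0.0556).

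The 154 transcripts kept the same shape in the untreated smaug-mutant gradients, which had not been used to call them. In wild type their median centred level in pool 1 was -3.50, -3.73 and -3.18 in gradients 1, 2 and 3, while in pool 2 it was -0.77, -0.43 and 0.14. Those are the pools that made the calls. In pool 4 it was 0.14, 0.25 and 0.34. In smaug-mutant gradients their median difference between pools 2 and 1 was 3.26, 2.12 and 1.96, against 0.13, -0.05 and 0.14 for all transcripts. Of the 154, 131 (85.1%) were higher in pool 2 in all 3 smaug-mutant gradients, against 27.9% of all transcripts. Smaug-mutant gradient 1 is the one that wild-type gradient 1 resembled. In the other 2 smaug-mutant gradients 144 and 136 of the 154 were higher in pool 2.

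The gap was narrower with puromycin. In the puromycin gradients the median difference of the 154 was 1.21 and 0.36, against 3.53 and 1.37 in the cycloheximide gradients. Both puromycin gradients had 101 of the 154 (65.6%) higher in pool 2, against 37.9% of all transcripts, and both cycloheximide gradients had 131 (85.1%), against 28.4% of all. What differed was the free pool. The median centred level of the 154 in pool 1 was -1.63 and -0.40 with puromycin, against -3.84 and -1.53 with cycloheximide, while in pool 2 it was -0.22 and 0.23 with puromycin, against -0.37 and -0.18 with cycloheximide. Replicates 1 of both drugs had the lower pool 1 levels, and replicates of the same number come from 1 lysate.

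The 13 called lower showed the reverse in untreated embryos. Their median centred level was near that of all transcripts in pool 1 of wild type (0.18, -0.29 and -0.02) and at -3.45, -3.51 and -4.40 in pool 2. In smaug-mutant gradients the median difference was -2.58, -1.33 and -2.35, and 11 of 13 were lower in pool 2 in all 3, against 22.5% of all transcripts. Among the drug gradients the direction was kept in cycloheximide replicate 1, where 12 of the 13 were lower in pool 2, against 3385 of all 6524 transcripts. In puromycin replicates 1 and 2 and cycloheximide replicate 2, 6, 8 and 4 of the 13 were lower. With puromycin the median difference was 0.18 and -0.09, and with cycloheximide -0.93 and 0.57. In 3 of those 4 gradients their pool 1 level was already at -4.00 or below, and in cycloheximide replicate 1 it was -1.77.

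**Figure D3:**
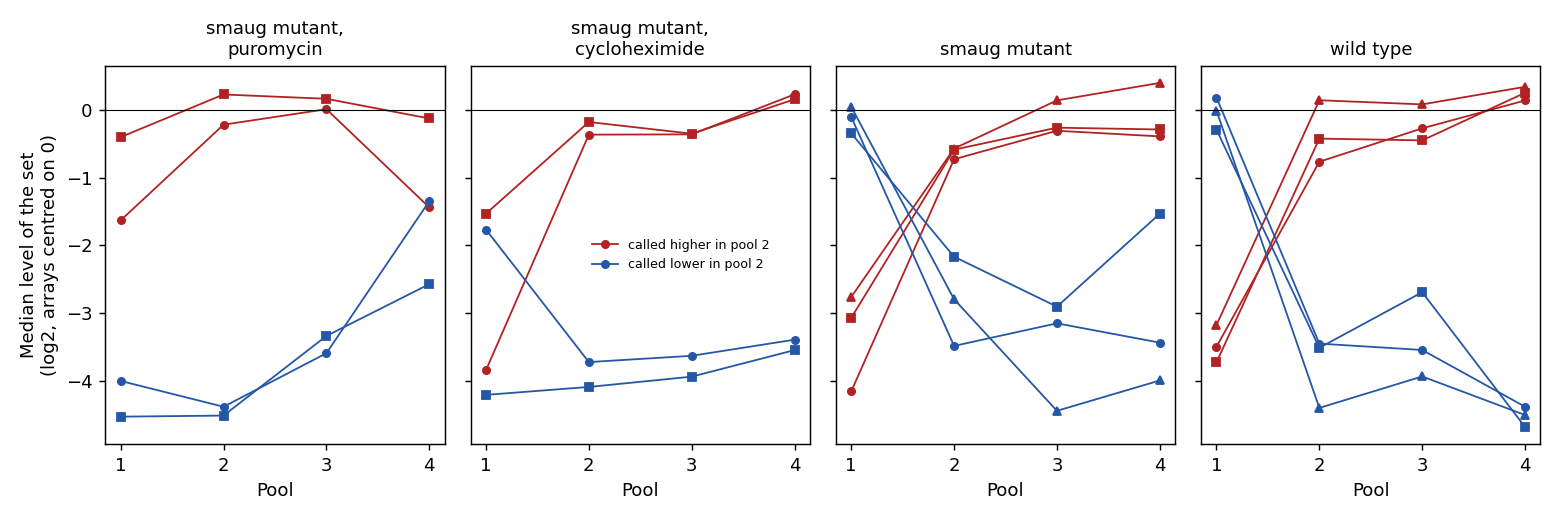
Median centred log2 level (y axis, 0 is the median of the array) in pools 1 to 4 (x axis) of the 154 transcripts called higher (red) and the 13 called lower (blue) in pool 2 of wild type, with 1 line per gradient and circles, squares and triangles for replicates 1, 2 and 3. In the 6 untreated gradients the red lines start between -4.16 and -2.76 in pool 1 and reach -0.77 to 0.14 in pool 2, and with puromycin they start at -1.63 and -0.40.

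Transcripts were also put in 4 equal groups by their mean translation index in the smaug-mutant gradients, whose arrays do not enter the wild-type difference. Both quantities subtract a pool 1 level, however. Pool 1 levels had a correlation of 0.92, 0.79 and 0.45 between same-numbered gradients of the 2 genotypes. A rising order is therefore in part built into the sorting, and is given as a description. From the lowest group to the highest, the median wild-type difference between pools 2 and 1 was -0.45 ± 0.29, -0.21 ± 0.12, 0.12 ± 0.20 and 1.02 ± 0.62 (SD of the medians of 3 gradients). The highest group held 131 of the 154 transcripts called higher, and the other groups 5, 7 and 11. The lowest group held 12 of the 13 called lower. Gradient 1, which resembled smaug-mutant gradient 1, had the steepest order, with medians of -0.66 in the lowest group and 1.69 in the highest, against -0.13 and 0.45 in gradient 2 and -0.57 and 0.93 in gradient 3. Position within the polysomes bore little relation to it, since the correlation of the difference with that between pools 4 and 3 lay from -0.15 to 0.20 over the 9 pairs of wild-type gradients.

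By level the order ran the other way and was shallower. In 4 equal groups by mean level in the smaug-mutant arrays, the median wild-type difference was 0.40 ± 0.13, 0.09 ± 0.09, -0.05 ± 0.13 and -0.13 ± 0.17 from the lowest group to the highest, and 87, 47, 16 and 4 of the transcripts called higher fell in them. The group of lowest level also held 12 of the 13 called lower. The smaug-mutant arrays averaged here include those of the free pool. Levels in that pool were correlated with the wild-type levels that the difference subtracts, as given above. A falling order can therefore be in part built into this sorting too. The order, its depth and the counts are given as a description.

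Only 35 of the 6524 transcripts could be given a gene name. Of these, 8 are listed under a gene directly, and 27 under a gene with a tag for 1 reading frame of the transcript. In 22 the transcript carries more than 1 gene, so that 1 value stands for all of them. Among the 35 named transcripts 2 (5.71%) rose in pool 2 and none fell, against 2.36% and 0.199% of all. With p under 0.05 before adjustment, 12 lay higher and none lower. The difference was positive in all 3 gradients for 16, negative in all 3 for 2 and mixed for 17. Their median was 0.61, against 0.11 over all transcripts. The names are those that the table happens to carry, not a sample of the genome.

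**Figure D4:**
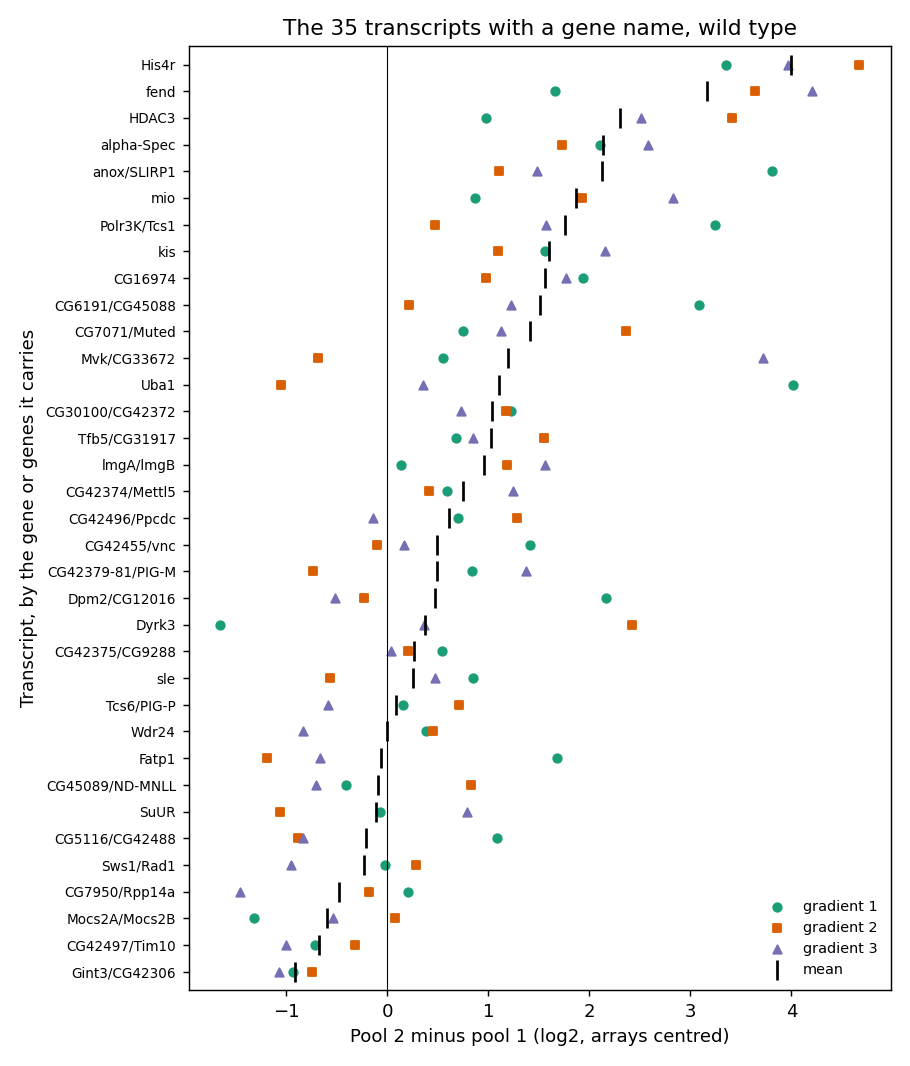
Difference of pool 2 minus pool 1 (x axis, log2, arrays centred) in each wild-type gradient for the 35 named transcripts (y axis, ordered by their mean), with symbols for gradients 1, 2 and 3 and a bar for the mean. *His4r* at 3.99 and *fend* at 3.17 lead the order, and *Gint3*/CG42306 at -0.92 ends it.

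Among chromatin genes *His4r* stood out. It encodes a histone H4 from outside the histone gene cluster, and histone H4 is a core protein of the nucleosome. Its level was 10.2, 9.55 and 9.72 in pool 2 of gradients 1, 2 and 3, against 7.66, 6.68 and 6.16 in pool 1. Pool 2 was the higher by 3.35, 4.66 and 3.97 after centring, with a mean of 3.99 ± 0.47 (limma SE, n = 3, adjusted p = 0.0226). Its pool 1 levels lay near the lowest of the arrays, which were 7.56, 5.32 and 5.59, so no fold is given. It was highest in pool 2 in all 3 gradients. Its level was 9.42, 7.27 and 9.33 in pool 3 and 8.49, 6.74 and 7.53 in pool 4, so the order from pool 2 downward was the same in all 3 gradients. Its mean level over the 6 arrays was higher than that of only 0.843% of transcripts, close to the floor of the array. In the smaug-mutant gradients the difference was 4.34, 1.88 and 3.30. It lost its call without gradient 2 (adjusted p = 0.0920) and without gradient 3 (adjusted p = 0.243), where no transcript was called.

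The other chromatin genes were not called. *HDAC3*, which encodes a histone deacetylase, was at 12.0, 11.9 and 12.7 in pool 2, against 11.8, 10.3 and 10.6 in pool 1. Its difference of 2.30 ± 0.56 (limma SE, n = 3) had an adjusted p of 0.0675, and 0.00685 without gradient 1, where its difference was 0.98 against 3.41 and 2.51 in the others. *kis*, a chromatin remodeller of the trithorax group, had differences of 1.56, 1.09 and 2.15, with a mean of 1.60 ± 0.45 (limma SE, adjusted p = 0.101). *SuUR*, whose product limits DNA replication in polytene chromosomes, had -0.07, -1.06 and 0.79, on both sides of 0. Of the 4, all 4 were higher in pool 2 in each smaug-mutant gradient, against 27.9% of all transcripts.

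*fend* was the other named transcript that rose. It was at 9.86, 9.69 and 11.6 in pool 2, against 9.0, 7.85 and 7.82 in pool 1. The difference was 1.66, 3.64 and 4.20, smaller in gradient 1 than in the others, with a mean of 3.17 ± 0.58 (limma SE, n = 3, adjusted p = 0.0353). Further down it was higher still, at 11.8, 11.0 and 11.7 in pool 3 and 12.2, 12.0 and 12.7 in pool 4. The call did not stand when arrays were rescaled, quantile-normalised or left uncentred (adjusted p = 0.0651, 0.153 and 0.0799), nor without gradient 2 or gradient 3 (adjusted p = 0.128 and 0.289). In smaug-mutant gradients its difference was 1.92, 1.62 and 0.74.

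*alpha-Spec*, which encodes alpha spectrin of the membrane skeleton, was nearest to the threshold among the rest. Its differences of 2.11, 1.72 and 2.58 were close to each other, with a mean of 2.14 ± 0.45 (limma SE, n = 3) and an adjusted p of 0.0526. It passed without gradient 1 (2.15, adjusted p = 0.0377). Only gradient 1 had Cy3, so a fit with the dye as a covariate counts none of its deviation as spread. The difference from that fit also weighs gradient 1 as much as gradients 2 and 3 together. In that fit *alpha-Spec* had a difference of 2.13. In pool 2 it was at 9.22, 9.97 and 11.3, against 7.91, 10.0 and 9.17 in pool 1, and before centring it was not the higher in pool 2 of gradient 2. The level in pool 1 ran over more than 2 log2 units between gradients.

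The 2 named subunits of GATOR2, a complex that activates the growth regulator TORC1 when amino acids are present, differed from each other. *mio* had differences of 0.86, 1.92 and 2.82, with a mean of 1.87 ± 0.51 (limma SE, adjusted p = 0.0931), and 2.37 without gradient 1 (adjusted p = 0.0237). *Wdr24* had 0.38, 0.45 and -0.84, and a mean at 0. The signal of *mio* was near the floor, above that of 1.04% of transcripts in mean level. In smaug-mutant gradients *mio* had 1.88, -2.16 and 2.69, so its direction did not hold there.

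Genes of the ubiquitin system were mixed. *Uba1*, the ubiquitin-activating enzyme, had the widest disagreement of all named transcripts, with differences of 4.01, -1.05 and 0.35. Its pool 2 level of 13.2, 11.8 and 14.7 varied less than its pool 1 level, which was 9.96 in gradient 1, against 14.7 and 14.8 in gradients 2 and 3. *lmgA*/*lmgB*, a transcript that carries 2 genes, among them *lmgA* for the Apc11 subunit of the anaphase-promoting complex, had 0.13, 1.18 and 1.56. *Gint3*/CG42306 had the lowest mean of the named transcripts, -0.92 ± 0.43 (limma SE, n = 3, adjusted p = 0.257). It was at 11.5, 10.8 and 12.0 in pool 2, against 13.2, 13.3 and 13.5 in pool 1, and was lower in pool 2 in all 3 smaug-mutant gradients too, by -0.92, -1.57 and -1.47.

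Transcripts for mitochondrial proteins did not move together. *anox*/*SLIRP1* carries *SLIRP1*, whose product binds mitochondrial RNA, and *anox*, for an acyl-CoA binding protein, and had 3.80, 1.10 and 1.48, with a mean of 2.13 ± 0.60 (limma SE, adjusted p = 0.101). *Tim10*, a chaperone of the intermembrane space that shares its transcript with CG42497, had -0.72, -0.32 and -1.0, and was at 12.5, 12.1 and 12.9 in pool 2, against 14.0, 14.3 and 14.3 in pool 1. *ND-MNLL*, a subunit of respiratory complex I carried with CG45089, had -0.41, 0.83 and -0.71.

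Genes of transcription and RNA modification lay mostly above 0 without a call. *Polr3K*/*Tcs1*, with a subunit of RNA polymerase III and a gene for modification of tRNA by threonylcarbamoyl groups, had 3.24, 0.47 and 1.57. *Tfb5*/CG31917, with a subunit of the general transcription factor TFIIH, had 0.67, 1.55 and 0.85. *Mettl5*, for a methyltransferase of ribosomal RNA carried with CG42374, had 0.59, 0.41 and 1.24. *Rpp14a*, for a subunit of RNase P carried with CG7950, had 0.20, -0.18 and -1.46. So 3 of these 4 were higher in pool 2 in every wild-type gradient, against 25.1% of all transcripts, and none passed the test.

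Of the genes for glycosylphosphatidylinositol anchors and dolichol sugars, none was on 1 side of 0 in all 3 wild-type gradients, although all 3 transcripts were higher in pool 2 in every smaug-mutant gradient. *PIG-M*, a mannosyltransferase of anchor synthesis whose transcript carries 3 further reading frames, had 0.83, -0.74 and 1.37 in wild type. *PIG-P*, of the enzyme that begins anchor synthesis and carried with *Tcs6*, had 0.15, 0.70 and -0.59. *Dpm2*, of dolichol-phosphate-mannose synthase and carried with CG12016, had 2.16, -0.23 and -0.52. Among metabolic genes, mevalonate kinase *Mvk* had 0.55, -0.69 and 3.72, *Ppcdc* of coenzyme A synthesis 0.70, 1.28 and -0.15, the fatty acid transport gene *Fatp1* 1.67, -1.19 and -0.67, and *Mocs2A*/*Mocs2B*, both subunits of molybdopterin synthase on 1 transcript, -1.32, 0.08 and -0.54. No metabolic transcript kept its sign over the 3 gradients.

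The rest had roles of several kinds. *Rad1*, of the DNA damage clamp and carried with *Sws1*, had -0.03, 0.29 and -0.95, *vnc*, an amino-terminal acetyltransferase carried with CG42455, 1.42, -0.11 and 0.16, the kinase *Dyrk3* -1.65, 2.42 and 0.36, and *sle* 0.84, -0.56 and 0.47. *Muted*, of the BLOC-1 complex of lysosome-related organelles and carried with CG7071, was higher in pool 2 in each gradient, by 0.75, 2.37 and 1.12 (adjusted p = 0.156). Among 5 transcripts of genes with no described role here, CG16974 (1.93, 0.97 and 1.77), CG6191/CG45088 (3.09, 0.21 and 1.22), CG30100/CG42372 (1.22, 1.17 and 0.73) and CG42375/CG9288 (0.54, 0.20 and 0.04) were higher in pool 2 throughout, and CG5116/CG42488 was not. Adjusted p in these 5 ran from 0.104 for CG16974 to 0.835 for CG5116/CG42488.

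Gradient 1 weighed heavily in several of these means, and its pool 1 array was where it differed. *anox*/*SLIRP1* was at 8.64 in pool 1 of gradient 1, against 13.1 and 12.0 in gradients 2 and 3. *Polr3K*/*Tcs1* was at 8.70 there, against 12.3 and 12.0, and CG6191/CG45088 at 9.17, against 13.2 and 12.2. *Dpm2*/CG12016 was at 8.66, against 12.4 and 12.2, and *Fatp1* at 8.73, against 12.9 and 11.9. In pool 2 these 5 transcripts ranged over 9.60 to 11.6 in gradient 1 and over 9.92 to 13.2 in the others.

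The gene table tags 23 of the 35 named transcripts as carrying an upstream reading frame, that is, a coding frame 5′ of the main one. Ribosomes that stop at an upstream frame can keep a transcript at a low ribosome number, which is why the 23 are described apart, a grouping made after the table had been seen. None of them was called (0 of 23, against 2.56% of all), and before adjustment 5 had p under 0.05, all of them higher. In wild type 9 of the 23 (39.1%) were higher in pool 2 in all 3 gradients, against 25.1% of all transcripts, and 2 (8.70%) were lower in all 3, against 22.3%. Their median difference was 0.67, 0.21 and 0.04 in gradients 1, 2 and 3, against 0.15, -0.01 and -0.02 over all, so the gap to the whole was widest in gradient 1. In pool 4 they were low, with a median centred level of -0.57, -1.005 and -0.84 in wild type, where 0 is the median of all transcripts by construction.

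**Figure D5:**
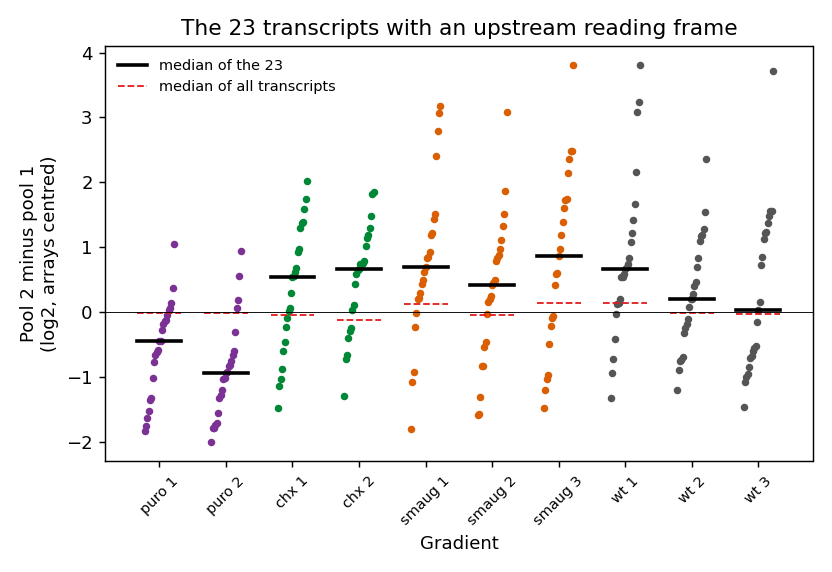
Difference of pool 2 minus pool 1 (y axis, log2, arrays centred) of the 23 transcripts with a tagged upstream reading frame in each gradient (x axis; puro, puromycin; chx, cycloheximide; wt, wild type), 1 point per transcript. Black bars are the medians of the 23, which lie at -0.45 and -0.94 with puromycin and at 0.54 and 0.67 with cycloheximide, and dashed red bars are the medians of all transcripts.

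With puromycin the 23 lay on the other side. Their median difference was -0.45 and -0.94 in the puromycin gradients, against 0.54 and 0.67 in the cycloheximide gradients. Both puromycin gradients had 17 of the 23 (73.9%) lower in pool 2, against 38.9% of all transcripts, and both cycloheximide gradients had 13 (56.5%) higher, against 28.4%.

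The difference between puromycin and cycloheximide was tested over all transcripts. Without regard to which gradients shared a lysate none of 6524 transcripts was called in limma (0%), although before adjustment p was under 0.05 for 588 higher and 814 lower, with a lowest adjusted p of 0.0554. With the shared lysate as a replicate block 550 were called (8.43%), 53 higher and 497 lower with puromycin. Among the 23, 10 were called lower with the block and none higher, and their median was -1.18, against 0.09 over all transcripts. Of the 154 transcripts called higher in pool 2 of wild type, 40 were called lower with puromycin and none higher, with a median of -1.31. *His4r* had the largest such value among named transcripts, with differences between pools 2 and 1 of -0.26 and -1.40 with puromycin, against 3.73 and 3.46 with cycloheximide (-4.43 ± 0.51, limma SE, adjusted p = 0.00106 with the block and 0.0554 without). *HDAC3* had -1.52 and -1.15 with puromycin, against 1.52 and 2.76 with cycloheximide (-3.48 ± 0.51, limma SE, adjusted p = 0.00249 with the block and 0.0628 without). For both genes the 2 drugs did not overlap. *fend* was not called, with 3.68 and 1.01 with puromycin, against 5.06 and 2.11 with cycloheximide (adjusted p = 0.143 with the block). The block leaves 1 residual degree of freedom per transcript, and leaving out 1 of the 4 gradients gave 0 to 2115 calls.

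Between genotypes no difference in the split between pools 2 and 1 was detected. Smaug-mutant minus wild-type differences gave 0 calls of 6524 in limma (0%), although before adjustment p was under 0.05 for 114 higher and 139 lower, with a lowest adjusted p of 0.875. The median over all transcripts was 0.08. Among the named transcripts the largest was that of *Sws1*/*Rad1*, whose split between pools 2 and 1 was 1.43, 1.87 and 2.49 in smaug-mutant gradients, against -0.03, 0.29 and -0.95 in wild type (2.16 ± 0.59, limma SE, adjusted p = 0.917). The genotypes did not overlap there, and the adjusted p was far from the threshold all the same. *fend* had 1.92, 1.62 and 0.74 in smaug-mutant gradients, against 1.66, 3.64 and 4.20 in wild type (-1.74 ± 0.76, limma SE, adjusted p = 0.917), with some overlap. The 154 transcripts called higher had a median of -0.58 here, but they had been chosen for high values in the wild-type gradients, which enter this comparison, so nothing follows from that value. Without wild-type gradient 1, which resembled smaug-mutant gradient 1, there were 3 calls. At 3 gradients each a difference smaller than the spread between gradients cannot be detected, and a missing call does not show that the genotypes act alike.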

How the data were processed

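The authors hybridised RNA of each gradient pool to NimbleGen 4-plex arrays in 1 dye, normalised by the quantile step of RMA, then fitted a linear transformation per array to the *Arabidopsis* spike-in. The deposited values are these log2 levels, 1 per transcript and array. The log base is taken from RMA. By the methods, only transcripts called expressed were kept. The files name no genome build.

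Groups and replicates came from the labels. Arrays were centred on their medians, and pool 2 minus pool 1 was tested with limma 3.58.1 (R 4.3.3) over 6524 transcripts at an adjusted p of 0.05. The gradient is the pair. No level was at or below 0, and none was left out. The fits were tested on simulated data with 200 changed transcripts. Names came from RefSeq's gene table (Release 6 plus ISO1 MT), in which 35 transcript identifiers matched a synonym. All 35 are described, plus up to 2 unnamed rises and 2 falls, the largest called, with no level under the lowest 1% of its array. Only 1 fall met this. No sequence is shown, since none was given for these transcripts. Members and lists were chosen with earlier results of these data known. Puromycin and cycloheximide gradients of 1 number are taken as paired because the methods divide 1 lysate between them. The deviations of same-numbered gradients had a correlation of 0.37. The spike-in fit applies a slope and a shift to all levels of an array. Centring removes the shift but not the slope, and the part of the slope in the calls was not tested. The number of arrays limits the precision. Alternatives were no centring, rescaling, quantile normalisation, a filter on low levels, the dye, a moderated test with trend, 1 fit over all 10 gradients, no pairing, and leaving out each gradient.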

Additional observations from a re-analysis of the deposited data

Results flagged for a closer look

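The split between pools 2 and 1 differed between puromycin and cycloheximide gradients for 550 transcripts when the shared lysate was a block, and for 14 of the transcripts named here. Each of these 14 was lower in pool 2 with puromycin, as puromycin minus cycloheximide, in limma with the block. The differences were -4.43 for *His4r*, -3.48 for *HDAC3*, -2.99 for CG42379/CG42380/CG42381/*PIG-M*, -2.82 for *Tcs6*/*PIG-P*, -2.68 for CG42375/CG9288, -2.63 for FBtr0070956, -2.47 for *Sws1*/*Rad1*, -2.35 for CG30100/CG42372, -2.28 for CG16974, -2.26 for *Tfb5*/CG31917, -1.97 for *Mvk*/CG33672, -1.96 for CG42455/*vnc*, and -1.81 each for CG42496/*Ppcdc* and CG7071/*Muted*. Adjusted p ran from 0.00106 for *His4r* to 0.0473 for CG7071/*Muted*. In *Rad1*, which had no consistent sign in wild type, pool 2 minus pool 1 was -0.77 and -0.94 with puromycin, against 1.38 and 1.86 with cycloheximide. In FBtr0070956 it was 0.64 and 0.07 with puromycin, against 4.87 and 1.11 with cycloheximide, so its value rests largely on replicate 1. None of the 14 was called without the block.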

How the results depend on the processing

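Taken per pool, the median difference of pool 2 from pool 1 on the spike-in scale kept its direction under every alternative run. It moved to -0.54 without gradient 2, against -0.96 with all 3. Set per mL, as given above, the gradients did not share a direction. The count of transcripts called (167, of which 154 higher and 13 lower in pool 2) moved by over 1.5 times under most. It was 80 (15 higher, 65 lower) without centring, 93 (60, 33) after quantile normalisation, 101 (96, 5) with no replicate block, 4 (4, 0) without the lowest 25% of transcripts by mean level, 890 (796, 94) with the dye as a covariate, 594 (392, 202) in 1 fit over all 10 gradients, and 0 to 450 (0 to 400, 0 to 50) with 1 gradient left out. Only the number of falls moved to 46 with rescaled arrays and to 34 with a trended, robust prior. Of the 167, 28 remained without centring, 72 after quantile normalisation and 98 with no replicate block. Smaug-mutant minus wild type gave 5 calls without centring, 0 to 3 with 1 gradient left out, and 0 with a replicate block (before adjustment p was under 0.05 for 259 upward and 218 downward). There same-numbered gradients deviated together by 0.38, 0.38 and 0.03, the values for gradients 1 and 2 being near the 0.37 of the drug gradients. The numbers were not taken as pairs in the main fit, since the methods describe no lysate shared between genotypes. Puromycin minus cycloheximide gave 550 with the replicate block, 466 without centring, 244 with rescaled arrays, 357 without the lowest 25%, 92 in 1 fit over 10 gradients, and 0 to 2115 with 1 gradient left out, where the lone gradient is assumed to vary like the others. It gave 1165 without cycloheximide replicate 1 and 2115 without cycloheximide replicate 2. The causes were not tested. Of 408 values of named transcripts under alternatives, 37 changed sign, none of them called. Another 16 values passed where the reported one did not. With the dye these were *anox*/*SLIRP1* (difference 2.55), *alpha-Spec* (2.13), *Polr3K*/*Tcs1* (2.13), *HDAC3* (1.97), CG6191 (1.90), *Uba1* (1.83), CG16974 (1.65) and *mio* (1.62), under the limits of that fit given above, on spread and on the weight of gradient 1. In 1 fit over 10 gradients they were CG16974 (limma adjusted p = 0.0193), *anox*/*SLIRP1* (0.0290), *Muted* (0.0403) and *HDAC3* (0.0431), with rescaled arrays *HDAC3* (0.0469), and without gradient 1 *HDAC3* (0.00685), *mio* (0.0237) and *alpha-Spec* (0.0377). Of the sign changes, those without centring were *Ppcdc* -0.39, *PIG-M* -0.52, *Dpm2* -0.53, *Mettl5* -0.26, *vnc* -0.52, *lmgA*/*lmgB* -0.048, *sle* -0.75, CG9288 -0.74, *PIG-P* -0.92 and *Dyrk3* -0.63. With rescaled arrays they were CG5116 0.18, *Wdr24* 0.40 and *Dyrk3* -0.88. With quantile normalisation they were *Dpm2* -0.15, CG5116 0.047, *Wdr24* 0.22 and *Dyrk3* -1.27. With the dye they were *Fatp1* 0.37, CG5116 0.11, *Wdr24* 0.094 and *Dyrk3* -0.13. With 1 gradient left out, values ran from -0.56 to 0.21 for *ND-MNLL*, -0.37 to 0.96 for *Dpm2*, -0.57 to 0.36 for *SuUR*, -0.49 to 0.13 for *Rad1*, -0.93 to 0.50 for *Fatp1*, -0.045 to 0.66 for *sle*, -0.86 to 0.12 for CG5116, -0.22 to 0.43 for *PIG-P*, -0.23 to 0.42 for *Wdr24*, -0.82 to 0.012 for *Rpp14a*, -0.35 to 2.18 for *Uba1*, -0.071 to 2.13 for *Mvk* and -0.64 to 1.39 for *Dyrk3*.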
